A study of Canis lupus familiaris with 16 samples.

Results

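The macrophage genes CD163, CD68, AIF1, MRC1, CSF1R, CD14, C1QA, C1QB, C1QC and TYROBP, a list of 10 named markers, were followed through 16 canine soft tissue sarcomas. They are 10 of the 41818 genes counted, and all 10 passed the filter on low counts that left 15408 genes for testing. The tumors were archived, formalin-fixed and paraffin-embedded masses from pet dogs of mixed breeds aged 2 to 14 years, and RNA from whole sections was sequenced, so that tumor cells, stroma and immune cells were read together. The groups follow the molecular identity in the sample labels, namely fibrosarcoma (FS, n = 4, tumors S1-02, S1-11, S1-12 and S2-06), peripheral nerve sheath tumor (PNST, n = 6, tumors S1-03, S1-04, S1-05, S1-09, S1-10 and S2-07) and perivascular wall tumor (PWT, n = 6, tumors S1-07, S2-03, S2-04, S2-08, S2-09 and S2-11). The study assigned this identity partly from the expression of the same libraries. It moved S1-10 from PWT to PNST and S2-08 from FS to PWT, so the groups are not independent of the counts. S1-04 and S1-05 carry identical labels and may come from 1 dog. The tumor names carry the prefix S1 or S2, which 3 of the 4 FS and 5 of the 6 PNST (S1) and 5 of the 6 PWT (S2) share, so prefix and type are partly confounded. No normal tissue was analysed here, and each group has 1 sample per tumor.

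Macrophages are phagocytes that arise from blood monocytes or from precursors seeded in tissues, and they are among the most common immune cells of solid tumors. Signals through the CSF1 receptor keep them alive, pattern recognition and scavenger receptors let them sense and take up microbes and debris, and C1q, which they make themselves, marks targets for the classical complement pathway. Their surface and secreted products differ with tissue and activation state, so that a list of markers need not move as 1 unit. In sections of bulk tissue, fewer macrophages and less RNA per macrophage cannot be told apart.

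Levels are given as CPM, the count of a gene divided by the counts on all genes of the tumor after TMM scaling (an adjustment for differences in RNA composition) and brought to the same library total. CPM is not corrected for gene length, so levels are compared between tumors and not between genes. The totals on genes ran from 507728 in S1-12 to 4311876 in S1-03. The counts on the 10 genes together ran from 105 in S1-12 to 4138 in S1-02, and a floor of 3 counts corresponds to 5.42 CPM in S1-12 and to between 0.844 and 4.13 CPM in the other tumors. MRC1, CSF1R, C1QB and C1QC reached 10 counts in all 16 tumors, C1QA and CD163 in 15, CD14 in 11, TYROBP in 10, CD68 in 9 and AIF1 in 7. The marker label therefore rests on genes that were detected in every type of tumor, although AIF1, CD14 and TYROBP were at 0 counts in S1-12. Intervals given for single tumors cover counting error only.

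The macrophage genes separated single tumors more than they separated the 3 tumor types. Summed over the 10 genes, FS ranged from 190 CPM (S1-12) to 1453 CPM (S1-02) with a median of 507 CPM. PNST ranged from 254 to 649 CPM with a median of 420 CPM, and PWT from 218 to 823 CPM with a median of 413 CPM. The highest and the lowest of all 16 measured sums were thus both FS. The CPM ranges of the types overlapped in 30 of 30 pairs of groups over the 10 genes. The share of overlapping ranges over all genes tested was not counted, so this count does not set the 10 genes apart from other genes.

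**Figure D1:**
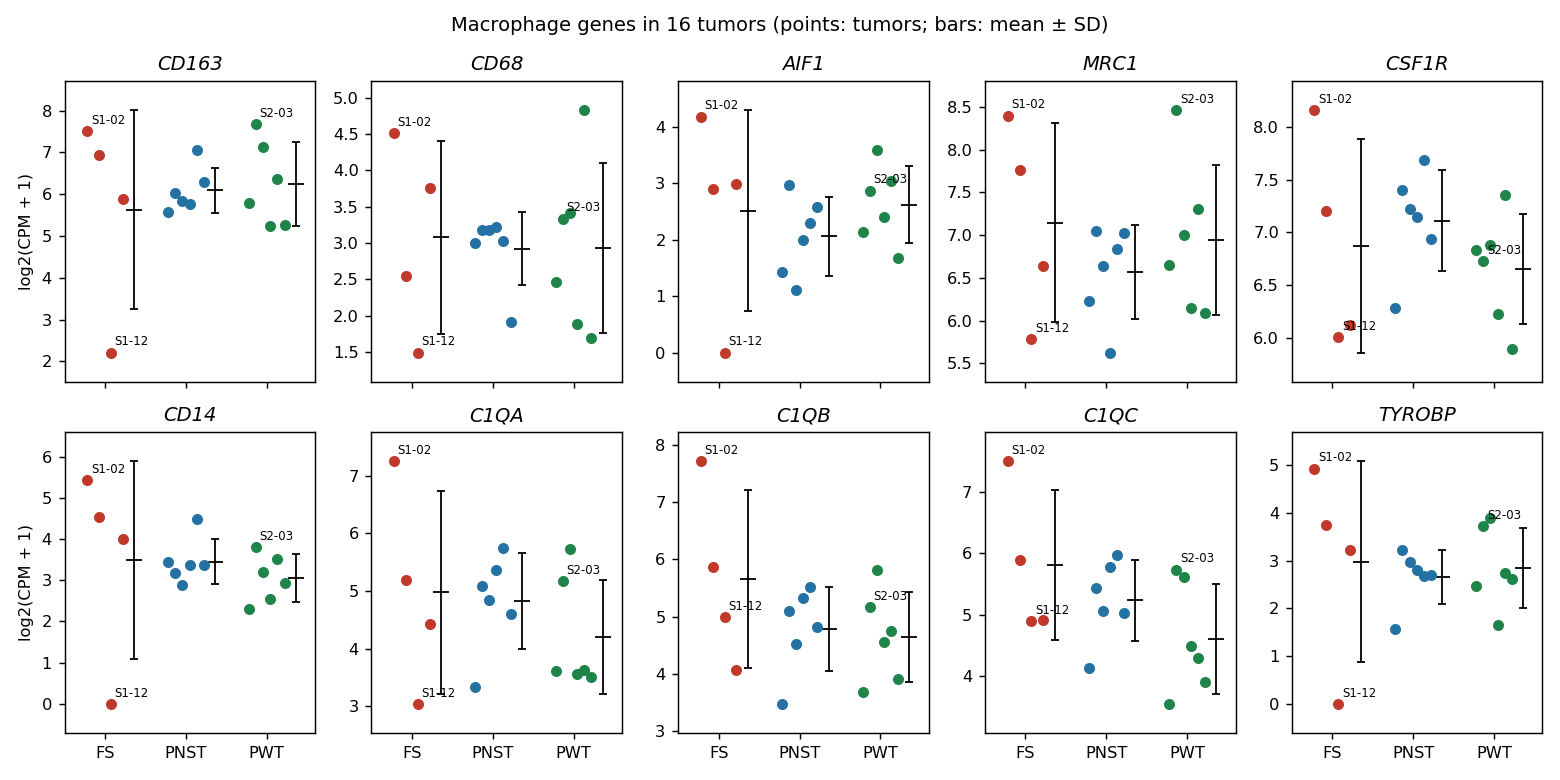
Level of each macrophage gene as log2(CPM + 1) on the vertical axis, with 1 point per tumor for FS (red, n = 4), PNST (blue, n = 6) and PWT (green, n = 6); black bars give the mean ± SD of each group, and S1-02, S1-12 and S2-03 are named. S1-02 lies at the top of most panels and S1-12, the tumor of lowest depth, at or near the bottom of many, both within FS, and the points of the 3 types overlap in every panel.

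Of the 10 genes, C1QB and C1QC had the smallest p-values in FS against the other types. C1QA, C1QB and C1QC encode the 3 chains of C1q, the recognition protein that starts the classical complement pathway. C1QB reached 209 CPM in S1-02, 57.2 CPM in S1-11, 30.7 CPM in S1-12 and 15.8 CPM in S2-06. It ran from 10.1 to 44.8 CPM in PNST, with a median of 30.1 CPM, and from 11.8 to 55.1 CPM in PWT, with a median of 24.2 CPM. S1-02 and S1-11 lay above all 12 tumors of the other types, while S1-12 and S2-06 lay within their range. S1-11 is not set apart from the PWT S2-04 at 55.1 CPM, since their exact Poisson 95% intervals overlapped (46.8 to 69.1 and 39.3 to 75.0 CPM). Mean C1QB was 78.2 ± 89.0 CPM (SD, n = 4) in FS, 29.4 ± 12.5 CPM (n = 6) in PNST and 27.4 ± 15.9 CPM (n = 6) in PWT. C1QB rose in FS against the other 12 tumors with a log2 fold change of 1.50 (SE 0.47, adjusted p = 0.0488, edgeR's quasi-likelihood test with Benjamini-Hochberg adjustment over all genes tested). It was the only one of the 10 genes to pass an adjusted p of 0.05 and a log2 fold change of 1, where 9.46% of all genes tested were called in either direction and 5.78% were called higher in FS.

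This call rested on S1-02. Without S1-02 the log2 fold change of C1QB was 0.31 (SE 0.45) and its adjusted p by edgeR's quasi-likelihood test was 0.730. Leaving out each of the 16 tumors in turn kept the call in 4 cases and lost it in 12, and apart from S1-02 the adjusted p by edgeR lay between 0.0502 and 0.0750 in the lost cases. With the prefix of the tumor name (S1 or S2) in the model, the edgeR value was 1.39 with an adjusted p of 0.116, and in the groups by histological diagnosis it was 1.25 with an adjusted p of 0.214. Among the S1 tumors alone, 3 FS and 5 PNST, the edgeR value for FS against PNST was 1.80 (SE 0.60, adjusted p = 0.126). The S2 tumors hold 1 FS and 1 PNST and give no such value.

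C1QC measured 180 CPM in S1-02, 58.2 CPM in S1-11, 28.9 CPM in S1-12 and 29.3 CPM in S2-06. PNST ranged from 16.6 to 62.1 CPM (median 37.3 CPM) and PWT from 10.7 to 52.2 CPM (median 20.1 CPM). Only S1-02 lay above every PNST and PWT, and the lowest level of all was that of the PWT S1-07. The log2 fold change of C1QC in FS was 1.16 (95% interval 0.21 to 2.12, adjusted p = 0.111 by edgeR's quasi-likelihood test), which missed the threshold, and it was 0.23 without S1-02.

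For C1QA the FS tumors measured 152 CPM (S1-02), 35.6 CPM (S1-11), 7.22 CPM (S1-12) and 20.4 CPM (S2-06). PNST ran from 9.01 to 52.7 CPM with a median of 30.4 CPM. In PWT, S2-04 and S2-03 measured 52.3 and 35.2 CPM and the other 4 tumors lay between 10.3 and 11.3 CPM, so that the levels fell apart into a high and a low part. The FS contrast of C1QA gave 1.07 (95% interval -0.09 to 2.24, adjusted p = 0.237 by edgeR's quasi-likelihood test) and turned to -0.25 without S1-02.

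Among the receptors of innate sensing, CD14, the co-receptor that presents lipopolysaccharide to Toll-like receptor 4, was higher in 3 of the 4 FS than in most other tumors. It measured 42.1 CPM in S1-02, 22.1 CPM in S1-11 and 14.9 CPM in S2-06, and was at 0 counts in S1-12, where the floor of 3 counts is 5.42 CPM. PNST ranged from 6.32 to 21.5 CPM (median 9.32 CPM) and PWT from 3.95 to 13.0 CPM (median 7.45 CPM). Those 3 FS lay above all 6 PWT, but S1-10, a PNST, lay between S1-11 and S2-06. The log2 fold change of CD14 in FS was 1.15 (SE 0.49), with an unadjusted p of 0.0295 and an adjusted p of 0.142 in edgeR's quasi-likelihood test. Without S1-12, the tumor of lowest depth, CD14 passed both thresholds with 1.50 and an adjusted p of 0.0202 by the same edgeR test. Without S1-02 the value was 0.51.

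TYROBP encodes DAP12, the adaptor through which TREM2 and related receptors signal in myeloid cells. It measured 29.5 CPM in S1-02, 12.4 CPM in S1-11, 8.36 CPM in S2-06 and 0 counts in S1-12. In PNST it ran from 1.97 to 8.37 CPM (median 5.75 CPM), and in PWT from 2.16 to 13.8 CPM (median 5.41 CPM). S2-04 and S2-03, both PWT, stood at 13.8 and 12.3 CPM, level with S1-11. The FS contrast of TYROBP was 1.08 (95% interval -0.03 to 2.19) with an adjusted p of 0.209 by edgeR's quasi-likelihood test, and it was 0.28 without S1-02.

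AIF1 encodes IBA1, an actin-binding protein of macrophages and microglia that is widely used as a tissue stain. Its counts were low, at 49 in S1-02 and at most 22 elsewhere. The FS levels were 17.2 CPM in S1-02, 6.47 CPM in S1-11, 0 counts in S1-12 and 6.97 CPM in S2-06. PNST ran from 1.15 to 6.82 CPM and PWT from 2.22 to 11.0 CPM, with medians of 3.46 and 5.32 CPM. S1-02 again stood above all PNST and PWT, and S1-11 and S2-06 lay within the range of the PWT. The FS contrast of AIF1 was 0.88 (95% interval -0.26 to 2.01, adjusted p = 0.334 by edgeR's quasi-likelihood test).

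The scavenger receptors CD163 and MRC1 did not follow the C1q genes in every tumor. CD163 is the receptor for haemoglobin bound to haptoglobin, and MRC1 is the mannose receptor CD206, and both are often used as markers of alternatively activated macrophages. CD163 measured 181 CPM in S1-02, 121 CPM in S1-11, 3.61 CPM in S1-12 and 58.5 CPM in S2-06. PNST ran from 46.4 to 133 CPM (median 60.4 CPM) and PWT from 36.7 to 204 CPM (median 67.8 CPM). The highest level was that of the PWT S2-03. The 2 reads of S1-12 give 3.61 CPM with an exact Poisson interval of 0.44 to 13.0 CPM, far below the median of 61.5 CPM over all tumors. Against both other types CD163 in FS gave 0.18 (95% interval -0.95 to 1.32, adjusted p = 0.876 by edgeR's quasi-likelihood test).

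MRC1 was at 336 CPM in S1-02, 215 CPM in S1-11, 54.2 CPM in S1-12 and 99.0 CPM in S2-06. It ran from 48.3 to 132 CPM in PNST (median 106 CPM) and from 67.2 to 351 CPM in PWT (median 113 CPM). S2-03 and S1-02 were the highest tumors, and the lowest was S1-09, a PNST whose C1QA and C1QC lay above the medians of its group. For MRC1 the FS contrast was 0.54 (95% interval -0.38 to 1.47, adjusted p = 0.480 by edgeR's quasi-likelihood test).

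CSF1R, the receptor for CSF1 and IL34 on which macrophages depend, differed little between the types. It measured 285 CPM in S1-02, 146 CPM in S1-11, 63.2 CPM in S1-12 and 68.8 CPM in S2-06. PNST ranged from 76.8 to 205 CPM (median 144 CPM) and PWT from 58.4 to 163 CPM (median 109 CPM). S1-02 was the highest of all, and S1-12 and S2-06 lay below every PNST. The FS contrast of CSF1R was 0.20 (95% interval -0.55 to 0.95), and it was the only gene whose log2 fold change was positive for PNST against the other types (0.25, 95% interval -0.42 to 0.93, adjusted p = 0.723 by edgeR's quasi-likelihood test) with all tumors in the fit. S1-12 kept 35 counts of CSF1R and 30 of MRC1, although 3 other genes of the list had none there.

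CD68, a glycoprotein of lysosomes and endosomes that is the usual pan-macrophage stain, had low counts in these libraries, between 1 and 62 per tumor. The FS measured 21.8 CPM (S1-02), 4.85 CPM (S1-11), 1.81 CPM (S1-12) and 12.5 CPM (S2-06). PNST ran from 2.76 to 8.35 CPM (median 7.61 CPM) and PWT from 2.22 to 27.4 CPM (median 6.80 CPM). The highest level was that of the PWT S2-09. Its C1QA, C1QB and C1QC were at 11.3, 25.8 and 18.6 CPM, near the PWT medians of 11.3, 24.2 and 20.1 CPM. For CD68 the FS contrast was 0.46 (95% interval -0.69 to 1.61, adjusted p = 0.653 by edgeR's quasi-likelihood test).

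Across the 10 genes, the log2 fold change in FS against both other types was positive for 10 of 10, with a median of 0.98, where 50.2% of all genes tested were positive and their median was 0.00. At an unadjusted p under 0.05, 3 of the 10 (CD14, C1QB and C1QC) were higher in FS, against 13.9% of all genes tested (25.4% in either direction). The FS mean was the highest of the 3 types for 8 genes, PNST was highest for CSF1R and PWT for CD163. Without S1-02 the values of CD163, CD68, CSF1R and C1QA turned negative (-0.37, -0.18, -0.40 and -0.25), those of MRC1 and AIF1 were 0.03 and 0.18, and without S1-12 all 10 became larger.

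**Figure D2:**
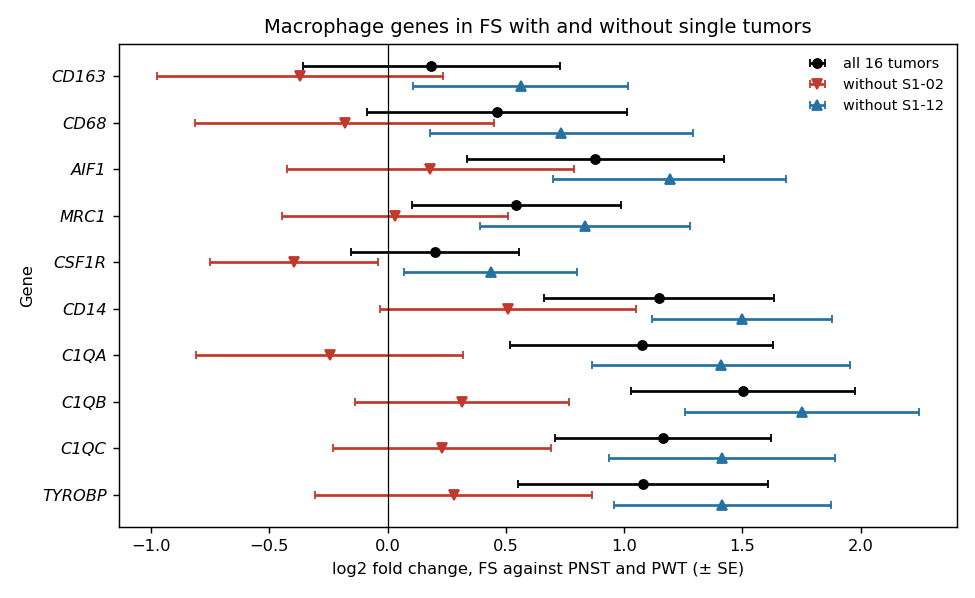
Log2 fold change of each macrophage gene in FS against PNST and PWT on the horizontal axis (± SE, edgeR), with all 16 tumors (black), without S1-02 (red) and without S1-12 (blue). C1QB moves from 1.50 to 0.31 without S1-02, and 4 genes fall below 0 there.

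In PNST against the other types, 0 of the 10 genes were called by edgeR's quasi-likelihood test, where 0% of all genes tested were called (at an unadjusted p under 0.05, 0 of the 10 against 15.7% of all genes). The log2 fold change was positive for 1 of 10, where 45.4% of all genes tested were positive, and its median was -0.44 against -0.06 over all genes tested. Without S1-02, CD14 (0.14), C1QA (0.52) and C1QC (0.34) were positive in PNST as well. In PWT against the other types 0 of the 10 were called, where 2.12% of all genes were (at an unadjusted p under 0.05, 0 of the 10 against 22.4%). The log2 fold change was positive for 4 of 10 (44.9% of all genes), with a median of -0.37 against -0.08 over all genes. DESeq2 also called 0 of the 10 in both comparisons, where it called 291 of all genes for PNST and 875 for PWT. The C1q genes and CD14 had the lowest values in PWT, from -0.87 for C1QB to -0.98 for C1QC. The 95% interval for C1QC ran from -1.99 to 0.04, so these comparisons do not show that the levels were alike.

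**Figure D3:**
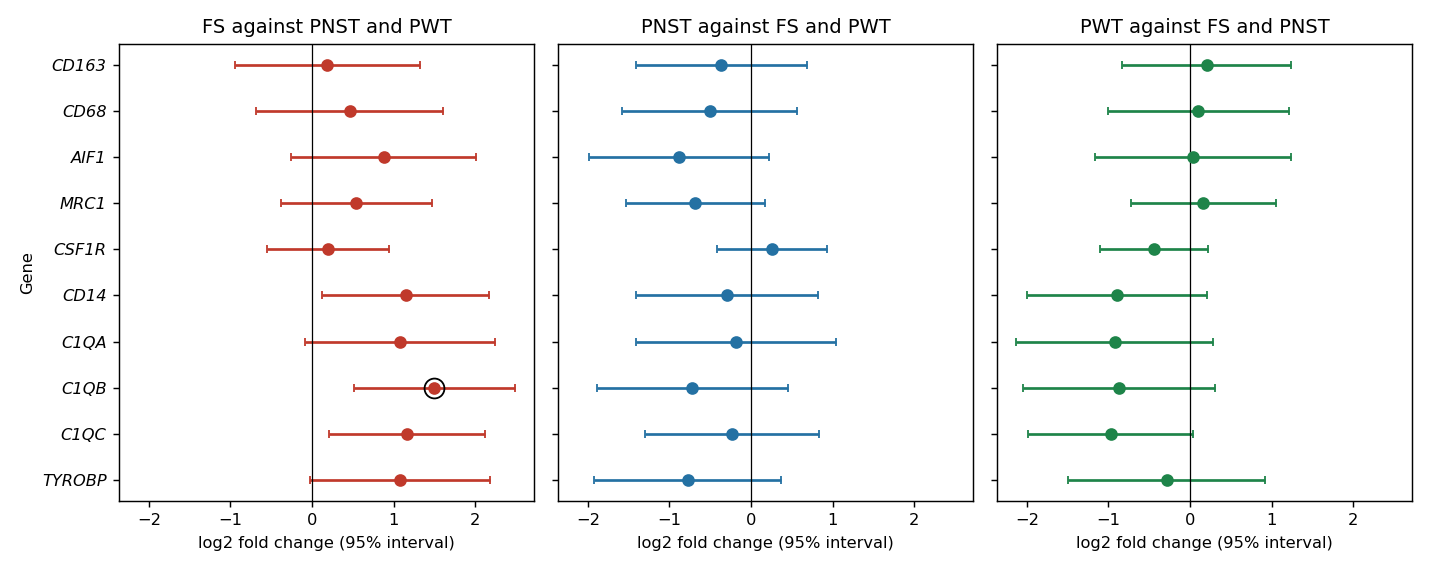
Log2 fold change (points) with 95% interval (bars) of each macrophage gene in each tumor type against the other types pooled, from edgeR's quasi-likelihood test. The circled point is C1QB in FS, the only called value, and the intervals of all genes span 0 in PNST and in PWT.

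Between pairs of types, edgeR's quasi-likelihood test and DESeq2 both called 0 of the 10 genes in each comparison. The shares of all genes that edgeR called were 7.13% for FS against PNST, 11.2% for FS against PWT and 0.169% for PNST against PWT. DESeq2 called more of all genes than edgeR for FS against PNST (1774 genes) and for PNST against PWT. At an unadjusted p under 0.05 the numbers were 1 of 10 (C1QB, against 23.2% of all genes), 3 of 10 (CD14, C1QB and C1QC, against 29.0%) and 0 of 10 (against 19.6%). The comparisons share tumors and are not independent. C1QC and C1QB came nearest between FS and PWT, with log2 fold changes of 1.47 (adjusted p = 0.0770) and 1.57 (adjusted p = 0.0799) by edgeR's quasi-likelihood test. Without S1-12, C1QC (1.71, adjusted p = 0.0490) and CD14 (1.75, adjusted p = 0.0168) passed in that comparison by the same edgeR test, and without S1-02 they measured 0.53 and 0.76. By mean level, 4 genes (CD14 and the C1q genes) were ordered FS, PNST, PWT and 4 (CD68, AIF1, MRC1 and TYROBP) FS, PWT, PNST. No neighbouring types in these orders differed by the test.

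Single tumors carried most of this variation. S1-02, an FS of grade 1/2, was the highest of all 16 tumors for 7 genes (AIF1, CSF1R, CD14, the C1q genes and TYROBP) and among the 3 highest for all 10. S1-12, an FS of grade 2, had the lowest measured value for 6 genes (CD163, CD68, AIF1, CD14, C1QA and TYROBP). For CD68, AIF1, CD14 and TYROBP other tumors lay below its floor of 5.42 CPM, so its depth does not show it to be the lowest there. Nor is it shown to be the lowest for C1QA. Its 4 counts of C1QA give 7.22 CPM with an exact Poisson interval of 1.97 to 18.5 CPM, which includes S1-03 at 9.01 CPM. Its C1QB level rested on 17 counts, and its 3 runs measured 25.8, 58.0 and 9.57 CPM. The PWT S2-03 held the highest CD163 and MRC1, and the PWT S2-09 the highest CD68. By grade, the sum over the 10 genes ran from 249 to 823 CPM in the 7 tumors of grade 1, from 190 to 679 CPM in the 5 of grade 2, and measured 218 and 334 CPM in the 2 of grade 3 and 402 and 1453 CPM in the 2 of grade 1/2.

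**Figure D4:**
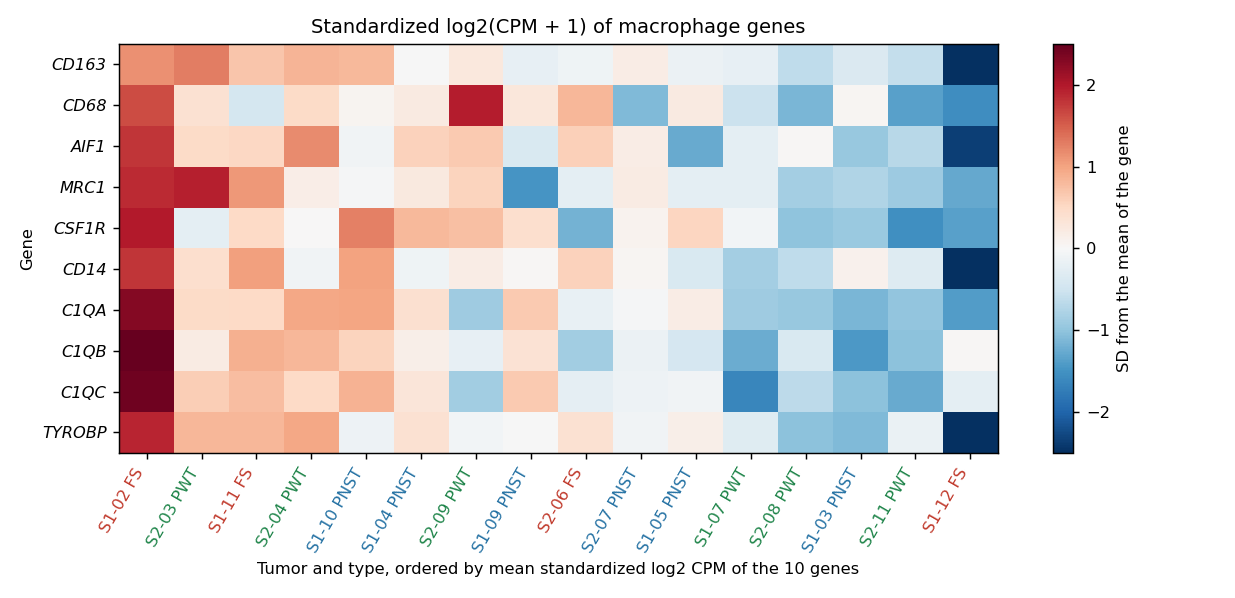
Macrophage genes (rows) in the 16 tumors (columns, labelled with their type and ordered by the mean over the 10 genes); the color gives the log2(CPM + 1) of the gene in SD from its mean over all tumors. S1-02 is high in every row and S1-12 is low in most rows but near the mean for C1QB and C1QC, and the 3 types are interspersed.

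Markers of other cell types did not follow 1 order with the macrophage genes. The summed T cell markers (CD3D, CD3E, CD3G, CD2 and CD8A) were highest in S2-03 at 42.7 CPM and in S1-02 at 40.0 CPM, and stood at 3.61 CPM in S1-12. B cell markers were all at 0 counts in S1-12 and summed to 1.62 to 25.1 CPM in the other tumors. The floor of 3 counts in S1-12 is 5.42 CPM, above its T cell sum and above the B cell sums of several other tumors. Its depth therefore does not show it to be low in lymphoid transcripts. The epidermal keratin list summed to 862 CPM in S1-02, 847 CPM in S1-05, 642 CPM in S2-03, 584 CPM in S1-04 and 473 CPM in S1-12, and to at most 14.6 CPM in the other 11 tumors. Neutrophil markers peaked in S2-06 at 131 CPM and fibroblast markers in S1-11. By type, the summed T cell levels ran from 1.08 to 40.0 CPM in FS, from 1.49 to 25.3 CPM in PNST and from 1.61 to 42.7 CPM in PWT, and the summed epidermal levels ran from 8.36 to 862 CPM in FS, from 6.19 to 847 CPM in PNST and from 4.13 to 642 CPM in PWT. The part of skin, lymphoid cells or depth in the differences between tumors was not tested.

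The make-up of the macrophage signal also differed between tumors. The 3 C1q genes took 37.2% of the counts on the 10 genes in S1-02 (Wilson 95% interval 35.8 to 38.7%), 35.2% in S1-12 (26.8 to 44.7%), 22.2% in S1-11 and 19.6% in S2-06. In PNST the share ran from 14.1% (S1-03) to 33.1% (S1-09, 30.6 to 35.6%) with a median of 20.8%. In PWT it ran from 10.7% (S1-07, 8.38 to 13.5%) to 26.8% with a median of 16.2%. S1-02 and S1-12, at the opposite ends of the summed level, thus had the highest C1q shares, although the interval of S1-12 overlapped those of S1-02, S1-09 and S2-04. The ranges of the 3 types overlapped. CD163 and MRC1 together took from 25.4% (S1-09) to 67.5% (S2-03, 65.4 to 69.4%) of the same counts. Within C1q, C1QC held 31.0 to 46.5%, C1QB 24.1 to 46.4% and C1QA 10.8 to 33.8% of the counts, and the lowest C1QA share was that of S1-12, where C1QA had 4 counts.

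**Figure D5:**
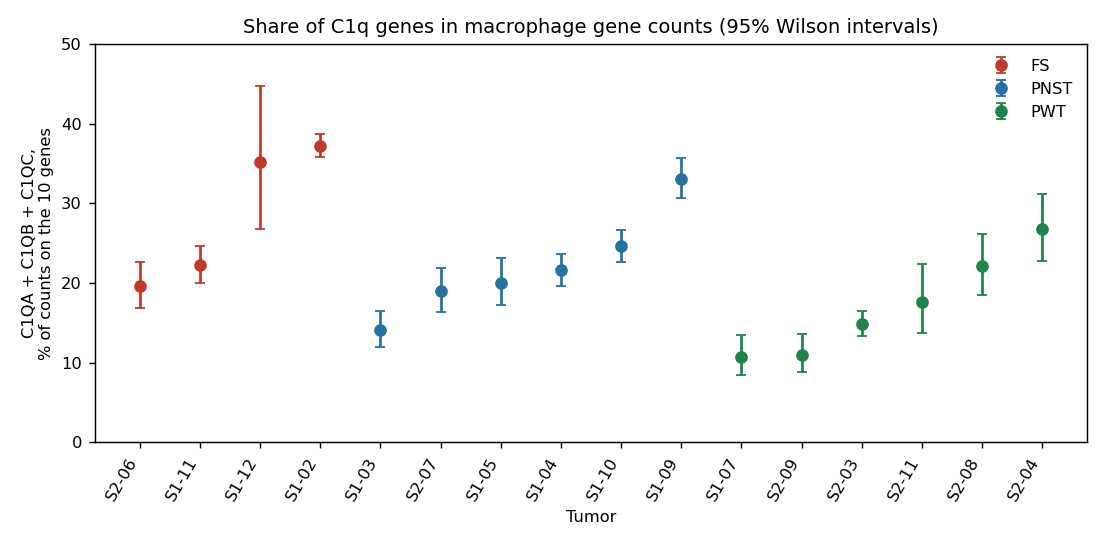
Share of C1QA, C1QB and C1QC in the counts on the 10 macrophage genes (vertical axis, percent) for each tumor, colored by type, with 95% Wilson intervals for counting error. S1-02, S1-12 and the PNST S1-09 are highest, between 33.1 and 37.2%, and the PWT S1-07 is lowest at 10.7%.

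Repeat runs of the same tumor gave a measure of the error between runs. Whether extraction or library making was repeated for each run is not given in the sources used here. Each of the 9 tumors with the prefix S1 had 3 runs. For C1QB the SD was 9.90 CPM between runs and 61.3 CPM between the 9 tumors, and for MRC1 it was 14.9 against 91.9 CPM. For CD68 these values were 3.85 and 5.61 CPM. The SD between tumors takes in S1-02, which had the highest level of the S1 tumors for these 3 genes. C1QB was at 209 CPM in S1-02 and ran from 10.1 to 57.2 CPM in the other S1 tumors. MRC1 was at 336 CPM in S1-02 and ran from 48.3 to 215 CPM in the others. The SD without S1-02 was not computed. S1-02 kept its C1QB level in its 3 runs, at 205, 215 and 213 CPM, while its CD163 measured 199, 116 and 183 CPM.

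Levels of the 10 genes were positively correlated over the tumors. Over the 45 pairs of genes, Pearson's r of log2 CPM across the 16 tumors ran from 0.39 to 0.93 with a median of 0.63, and 39 pairs by Pearson's r and 33 by Spearman's rho had a permutation p adjusted over the 45 pairs under 0.05. C1QB and C1QC were the closest pair by Pearson's r, with r = 0.93 and rho = 0.90 (adjusted permutation p = 0.000225 and 0.00045, of which the first rests on 1e-05, the smallest p that 100000 permutations can give). Leaving out the 2 tumors farthest from the median of C1QB gave 0.88, and the value was 0.97 within the S1 tumors and 0.77 within the S2 tumors. C1QA and C1QC had the highest rho (0.91, with r = 0.92). Their r was 0.94 without the farthest tumors, 0.91 within S1 and 0.95 within S2. CD163 and MRC1 had r = 0.76 and rho = 0.89 (adjusted permutation p = 0.0011 and 0.00045), with 0.81 without the farthest tumors, 0.71 within S1 and 0.91 within S2. CD68 and C1QB were the least related, with r = 0.39 and rho = 0.35 (adjusted permutation p = 0.130 and 0.184). Over all 45 pairs r ran from 0.19 to 0.94 without the farthest tumors, from 0.43 to 0.97 within S1 and from 0.06 to 0.95 within S2, and all were positive. The share of such pairs over all genes tested was not counted, so these values do not set the 10 genes apart from other genes.

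The genes outside the list whose log2 CPM was most like the mean standardized level of the 10 genes over the 16 tumors were BPI (r = 0.97), STING1 (0.92), ALDH2 (0.91), SLCO2B1 (0.91), LOC607096 (0.89), XDH (0.88), LOC106557516 (0.86), EHD4 (0.86), CYBB (0.86) and LCP1 (0.86). CYBB encodes the catalytic subunit of the phagocyte NADPH oxidase, LCP1 an actin-bundling protein of leukocytes, STING1 the adaptor of the cytosolic DNA response, and BPI an antibacterial protein that binds lipopolysaccharide. Without S1-02 and S1-12 the values ran from 0.66 (XDH) to 0.93 (BPI). All but EHD4 were highest in S1-02.

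Related pathways were described by lists of other myeloid genes in the same fit. Of the CSF1R ligands and recruitment genes (CSF1, IL34, CCL2 and others), 7 of 12 could be tested and 0 were called in FS against the other types by edgeR's quasi-likelihood test, with a median log2 fold change of 0.07. Of the TYROBP and Fc receptor signaling genes, 10 of 11 were positive with a median of 0.91, and the kinase SYK was called higher in FS (1.54, SE 0.46, adjusted p = 0.0382 by edgeR's quasi-likelihood test). Leaving out single tumors in turn lost the SYK call in 8 cases, among them S1-02 (1.39). The lowest value of SYK was 1.05, without S2-06. With the groups by histological diagnosis SYK measured 1.15 and was not called (adjusted p = 0.266 by edgeR's quasi-likelihood test). The 8 tested genes of CD14 and Toll-like receptor signaling had 0 calls and a median of 0.52, and the 7 class II genes had 0 calls and a median of 0.67. None of the genes of these last lists, nor of the CSF1R ligands, had an unadjusted p under 0.05 in that comparison.

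Among the 13 tested complement genes outside C1q, 8 were positive in FS against the other types, with a median log2 fold change of 0.46. C2, the protease that C1s cleaves, was called higher in FS. It measured 85.1 ± 108 CPM (SD, n = 4) in FS, 23.8 ± 8.53 CPM in PNST and 17.4 ± 8.26 CPM in PWT (n = 6 each), with a log2 fold change of 2.05 that was 0.69 without S1-02 and then not called.

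Of the 15 tested lysosomal and lipid-handling genes, 2 were called higher in FS. CTSB, the protease cathepsin B, measured 9717 CPM in S1-02, 721 CPM in S1-11, 256 CPM in S1-12 and 304 CPM in S2-06, and APOE, a lipid carrier secreted by macrophages, had a log2 fold change of 2.45. Without S1-02 these were 0.62 for CTSB (adjusted p = 0.188 by edgeR) and -0.44 for APOE, both without a call. In PWT against the other types GRN (-1.24), the gene of the lysosomal protein progranulin, and CEBPA (-1.23), a transcription factor of the myeloid lineage, were called lower. With the prefix in the model they measured -1.04 and -1.30 (adjusted p = 0.364 and 0.237 by edgeR), and 0 of all genes tested were called for PWT in that model. Of the pan-leukocyte list, 1 of 18 was called in FS, ADGRE1 (2.23), which encodes the F4/80 antigen, and it lost the call without S2-06 (0.84). The median of that list, 1.01, was close to that of the 10 macrophage genes. HMOX1, which encodes the haem-degrading enzyme haem oxygenase, was the 1 call among 12 tested scavenger and resident macrophage genes (1.65, and 0.79 without S1-02). Of the fibroblast markers 3 of 6 were called higher in FS, the collagens COL1A1 (1.81) and COL3A1 (1.61) and the matrix proteoglycan LUM (2.28), while 2 of the 6 were lower at an unadjusted p under 0.05. Without S1-11 the values of COL1A1, COL3A1 and LUM were 0.82, 0.39 and 1.53, and none was called by edgeR.

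Of the myeloid transcription factors 0 of 11 were called in FS against the other types by edgeR, with 4 higher and 1 lower at an unadjusted p under 0.05 and a median of 0.35, and only 4 of 11 macrophage cytokines could be tested, with 0 calls. Between FS and PNST, SRGN, which encodes a granule proteoglycan of blood cells, was called higher in FS (2.79) and the cytokine TGFB1 (-1.18) lower, and both lost the call with the groups by histological diagnosis and among the S1 tumors alone. Between FS and PWT the lysosomal genes NPC2 (1.21) and CTSD (1.66) and the transcription factors CEBPA (1.50) and CEBPB (1.30) were called higher in FS, as was the collagen COL1A2 (1.50). Without S1-02 the values of NPC2 and CTSD were 0.48 and 0.30 and were not called, while CEBPA measured 1.68 and stayed called. With the groups by histological diagnosis all 5 lost the call, CEBPA at 1.13 (adjusted p = 0.114 by edgeR) and CEBPB at 0.80 (0.280). Only 5 of all genes tested were called for FS against PWT in those groups, so that loss is not particular to these genes. NPC2, CTSD and COL1A2 also lost the call with the prefix in the model and with only FS and PWT in the fit. Over all comparisons 33 results of 20 such genes were called, and of the 31 that could be fitted without S1-02, 14 lost the call or turned.

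Overlap between genes could bear on CD163 and on C1q. In the RefSeq annotation of the dog assembly UU_Cfam_GSD_1.0, which is not the build of the counts, C1QB, C1QC and C1QA lie next to each other, and the long noncoding RNA LOC119870434 overlaps the spans of C1QC and C1QA. It had at most 19 counts in a tumor, and LOC100684512, a noncoding RNA that overlaps CD163, had at most 21. Whether reads were counted by strand is not given in the sources used here, so reads of these pairs cannot be told apart.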

How the data were processed

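The authors sequenced RNA of 16 tumors on an Ion platform and deposited raw counts per gene, made with STAR and HTSeq on the ROS-canfam-01 build, in 34 columns, with 3 runs for each S1 tumor and 1 for each S2 tumor. Counts on genes were 22.9 to 30.6% of the total that HTSeq tallied, with its classes of reads not assigned to a gene included. The share of all sequenced reads was not computed. Runs of a tumor were summed here. Genes that reached 10 counts in 4 or more tumors were tested with edgeR 4.0.16 (R 4.3.3, TMM, quasi-likelihood, Benjamini-Hochberg), each type against both others pooled and in pairs from 1 fit of 3 group means. The call thresholds were 0.05 for the adjusted p and 1 for the size of the log2 fold change. The test was tried on simulated data. DESeq2 1.42.0 was an alternative. Log2 CPM used a prior count of 2 for correlations, with 100000 permutations. Wilson and exact Poisson 95% intervals used scipy 1.17.1. Named were all 10 members, every gene of the other lists called in any of 6 comparisons (20, of which 2 are not reported here), and the 10 genes most like the members, with the values of further genes left out. The members and lists were chosen with earlier results of these data known. FOLR2, CTSL, ALOX5AP, C4A, LBP, CLEC9A and DLA-DRB1 were not matched by symbol. P-values measure the spread between tumors.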

Additional observations from a re-analysis of the deposited data

Results flagged for a closer look

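In 5 of the 30 groups of tumors tested (10 genes in 3 types), 1 tumor lay apart from the others by Dixon's criterion. Chance meets it in about 1 of 20 groups only where values are independent and normally distributed. The criterion was applied to untransformed CPM, and the groups share tumors, so 5 of 30 cannot be set against that rate. S1-10, a PNST that histology had placed among the PWT, had the highest CD163 of its group at 133 CPM, the next being 76.8 CPM, and the highest CD14 at 21.5 CPM, the next being 9.85 CPM. S2-07 had the lowest CD68 of the PNST at 2.76 CPM, a value of 5 counts, while the other 5 PNST were at 7.04 CPM or above. S2-09 had the highest CD68 of the PWT at 27.4 CPM, from 34 counts, with the next at 9.64 CPM. S2-03 had the highest MRC1 of the PWT at 351 CPM, with the next at 157 CPM.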

How the results depend on the processing

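Over the 60 results of the 10 genes, 1312 of 1390 alternative values kept their direction and side of the threshold, 57 reversed, 15 lost a call and 6 gained one. The C1QB call in FS became 0 of 10 called with histology groups, with prefix as a term and with S1-04 and S1-05 summed (adjusted p = 0.0626 by edgeR), and DESeq2 kept it (adjusted p = 0.0361). Without single tumors the number called ranged from 0 to 2 in FS against the rest (2 without S1-12, 0 without S1-02) and from 0 to 2 in FS against PWT. Shallow libraries, above all S1-12, limit CD68, AIF1, CD14 and TYROBP.

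Counts over all genes called moved from 1457 to 205 with histology for FS against the rest and ranged from 911 to 1583 without single tumors. For PNST against the rest they moved from 0 to 2 without a filter, 291 with DESeq2 and 170 with 1 model of 3 means, and ranged from 0 to 3. For PWT against the rest they moved from 327 to 128 without a filter, 875 with DESeq2, 0 with histology or prefix and 859 with 1 model, and ranged from 11 to 487. For FS against PNST they moved from 1099 to 1774 with DESeq2, 0 with histology and 535 in the S1 tumors alone (added after seeing the data), and ranged from 656 to 1201. For FS against PWT they moved from 1726 to 5 with histology, 895 with prefix and 1112 with only both types, and ranged from 1062 to 1898. For PNST against PWT they moved from 26 to 517 with DESeq2, 0 with histology, prefix or summed tumors and 409 with only both types, and ranged from 0 to 226. The cause was not tested.

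Reversed log2 fold changes were close to 0 in most cases. With histology groups CD163 measured -0.0740 in FS against the rest and -0.41 against PWT, CD68 -0.0846 in FS against PWT, and CD14, C1QA and C1QB -0.34, -0.11 and -0.23 in PNST against PWT. With prefix as a term CD68 and AIF1 measured -0.0713 and -0.22 in PWT against the rest and C1QB -0.15 in PNST against PWT. AIF1 in PWT was -0.0459 without a filter and -0.0195 with S1-04 and S1-05 summed. CSF1R in FS against PNST, at -0.0039 with all tumors, was 0.0363 with RLE, 0.0304 with DESeq2, 0.0079 with S1-04 and S1-05 summed and 0.21 in the S1 tumors.

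Without single tumors, FS against the rest ranged from -0.37 to 0.56 for CD163, -0.18 to 0.77 for CD68, -0.40 to 0.43 for CSF1R, -0.25 to 1.41 for C1QA and -0.44 to 2.82 for APOE. PNST against the rest ranged from -0.60 to 0.14 for CD14, -0.39 to 0.52 for C1QA and -0.40 to 0.34 for C1QC. PWT against the rest ranged from -0.22 to 0.42 for CD163, -0.61 to 0.38 for CD68, -0.20 to 0.45 for AIF1, -0.33 to 0.44 for MRC1 and -0.56 to 0.17 for TYROBP. FS against PNST ranged from -0.17 to 0.75 for CD163, -0.60 to 0.23 for CSF1R, -0.47 to 1.18 for C1QA and -0.0064 to 1.21 for C1QC. FS against PWT ranged from -0.54 to 0.44 for CD163, -0.36 to 0.97 for CD68, -0.11 to 0.89 for AIF1, -0.22 to 0.78 for MRC1 and -0.15 to 0.68 for CSF1R. PNST against PWT ranged from -0.63 to 0.0632 for CD163, -0.59 to 0.33 for CD68 and -0.0519 to 0.42 for C1QB. No paired analysis was possible because the labels give the tumors no replicate numbers shared between types.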
